A study of Mus musculus with 19 samples.

Results

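The MHC class I heavy chain genes H2-K1, H2-D1, H2-Q4, H2-Q7, H2-T22, H2-T23 and H2-M3, and B2m, the gene of their common light chain, were followed in RNA from 3 brain regions, the cerebellum (CB), the striatum (STR) and the prefrontal cortex (PFC), of mice with an SCA17 knock-in allele (KI) and of wild-type mice (WT). The 8 genes were found by their GENCODE M21 names among 41128 Ensembl genes in the count table, and all 8 were among the 16841 genes that passed the low-count filter and were tested. SCA17 (spinocerebellar ataxia type 17) arises when the polyglutamine stretch of TBP, a general transcription factor that binds the TATA box, is too long. The KI mice carried such an expansion in Tbp through the germline and in every cell type. Per the study's methods, the line came from floxed mice crossed with EIIa-Cre mice, an early embryonic Cre driver, and its KI progeny were bred on with WT mice. All mice of both genotypes were 3 months old, none was treated, and the labels give C57BL/6 as the background of each; whether all carried the same H2 alleles was not tested. The 19 libraries comprised 4 CB KI libraries and 3 libraries in each of the CB WT, STR KI, STR WT, PFC KI and PFC WT groups.

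Class I molecules consist of a heavy chain, which binds a peptide, and beta-2 microglobulin, encoded by B2m, without which most heavy chains do not reach the cell surface stably. Peptides are cut by the proteasome, carried into the endoplasmic reticulum by the TAP transporter and loaded there, and the finished complex is shown to CD8 T cells or natural killer cells. Interferons raise these genes in many cell types through transcription factors such as IRF9 and the coactivator NLRC5, and class I genes of the brain have also been described in neurons, microglia and endothelium. H2-K1 and H2-D1 encode the classical, peptide-presenting heavy chains. H2-Q4, H2-Q7, H2-T22, H2-T23 and H2-M3 encode non-classical ones, of which H2-T23 (Qa-1) presents signal-sequence peptides to natural killer receptors and H2-M3 presents formylated peptides.

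Tbp and the 7 heavy chain genes lie on chromosome 17, and B2m lies on chromosome 2. In GENCODE M21 (GRCm38), H2-K1 is at chr17:33996017-34000347 on the minus strand, H2-D1 at chr17:35262730-35267499 (plus), H2-Q4 at chr17:35379617-35385290 (plus), H2-Q7 at chr17:35439155-35443773 (plus), H2-T23 at chr17:36029773-36032855 (minus), H2-T22 at chr17:36037128-36042747 (minus) and H2-M3 at chr17:37270220-37274484 (plus). B2m is at chr2:122147686-122153083 (plus). H2-K1 starts 18.5 Mb and H2-M3 21.7 Mb beyond the end of Tbp. B2m is therefore the member that is not linked to the knock-in allele.

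The promoters of the members share short stretches with the letters of known regulatory elements, shown here because the members' levels are compared with those of interferon response genes below. Sequences are from RefSeq (GRCm38.p6), all 8 members had a window of 250 bases before to 50 bases after the start, and each stretch is 30 bases on the strand of the gene, 5′ to 3′. Capitals mark TTTCACTTC (the reverse complement of GAAGTGAAA), the interferon-stimulated response element core (GAAA, any 2 bases, GAAA, or its reverse complement), and GGGATTCCC, which are kappa B-type letters. The first and the last were added to the search after the sequences had been seen. The search covered both strands, and capitals of different motifs do not overlap in these stretches.
H2-K1: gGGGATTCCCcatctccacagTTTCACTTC
H2-D1: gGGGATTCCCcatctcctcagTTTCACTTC
H2-Q4: ggggatttcccatctccccagTTTCACTTC
H2-Q7: tgGGGATTCCCatctccccagTTTCACTTC
H2-T22: agagtccctaattggcttagTTTCACTTTC
H2-T23: atgaaaagggatcctactgcTTTCTCTTTC
H2-M3: attcccccatttcctctgaggTTTCACTTC
B2m: GAAACTGAAAatgggaaagtccctttgtaa

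The stretches lie at chr17:34000429-34000458 for H2-K1, chr17:35262923-35262952 for H2-D1, chr17:35379443-35379472 for H2-Q4, chr17:35439021-35439050 for H2-Q7, chr17:36042924-36042953 for H2-T22, chr17:36032816-36032845 for H2-T23, chr17:37270112-37270141 for H2-M3 and chr2:122147548-122147577 for B2m. Those of H2-D1 and H2-T23 fall inside an annotated M21 exon of the same gene, that of H2-Q4 inside an exon of Gm11131 on the other strand, and the other 5 in no M21 exon. The letters GAAGTGAAA were present on either strand in 0.505% of 32851 RefSeq promoter windows, the response element core in 3.44% and GGGATTCCC in 0.353%. H2-K1, H2-D1, H2-Q4, H2-Q7 and H2-M3 held the first, H2-T22, H2-T23 and B2m the second, and H2-K1, H2-D1 and H2-Q7 the kappa B-type letters as well. GAAGTGAAA and GGGATTCCC were searched for after these promoters had been seen, so their low shares carry no weight for the members. Also searched, but not marked, were TGACGC (7.4% of windows) and ATTGG (37.4%). TGACGC was absent from H2-Q7, H2-T22, H2-T23 and B2m, and ATTGG was present in every member. The match describes letters in a window and does not show that a factor was bound there in these mice.

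Each library held between 10639110 and 17431284 counts (median 15082703). Tbp itself had 48.5 to 56.6 CPM (counts scaled to the TMM-adjusted library size) in CB KI and 52.5 to 62.0 in CB WT, 38.1 to 42.3 in STR KI and 39.5 to 49.6 in STR WT, and 32.0 to 35.9 in PFC KI and 33.5 to 42.1 in PFC WT, so the total Tbp count did not separate the genotypes in any region, and gene counts cannot show the repeat. The summed markers of each region were highest in the libraries labelled with it, and in CB and STR the KI sums lay below the WT sums. The 6 cerebellum markers summed to 4176 to 5383 CPM in CB KI and 5924 to 6341 in CB WT, and to at most 563 elsewhere. All CB KI libraries lay below all CB WT libraries for 3 of the 6, beside 6.47% of all tested genes, and Pcp2, a Purkinje cell marker, was called lower (-1.16 ± 0.14, edgeR adjusted p = 0.000196). The 6 striatum markers summed to 3377 to 4803 CPM in STR KI and 5663 to 6780 in STR WT, and reached 702 in 1 of 3 PFC KI libraries. All STR KI libraries lay below all STR WT libraries for 6 of the 6, beside 8.46% of all tested genes, and 0 of the 6 were called in edgeR. The part of these differences in the members' values was not tested. Choroid plexus markers varied within groups, from 10.2 to 4916 CPM in CB KI and from 18.0 to 1956 in CB WT, and lay between 1549 and 8949 in STR. The labels give 3 to 4 mice per genotype, so that libraries of different regions may come from the same mouse, and in bulk tissue fewer cells of a type and less RNA per cell cannot be told apart.

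B2m and H2-K1 were higher in KI than in WT mice in the cerebellum and in the striatum, by about 1.1 to 1.6 on the log2 scale, and these were the members that passed the test. In CB, 2 of 8 members were called higher and 0 lower at an adjusted p under 0.05 (edgeR quasi-likelihood test, Benjamini-Hochberg over all tested genes), beside 0.517% of all tested genes called higher and 0.315% called lower. In STR, the count was again 2 of 8 higher, beside 0.392% of all genes, and 0 lower, beside 0.19%. In PFC, 0 of 8 members were called in edgeR, beside 0.0891% of all genes called higher and 0.0178% called lower, and DESeq2 also called 0. At an unadjusted p under 0.05, 4 of 8 members were higher in CB (4.86% of all genes), 6 of 8 in STR (3.37%) and 4 of 8 in PFC (2.53%), and 0 were lower in any region (5.26%, 4.76% and 3.4% of all genes). All KI libraries lay above all WT libraries for 4 of 8 members in CB, 7 of 8 in STR and 1 of 8 in PFC, where 5.82%, 5.65% and 4.38% of all tested genes did so. For 0 of 8 members did all KI libraries lie below all WT libraries, beside 6.47%, 8.46% and 4.32% of all genes. H2-Q4 and H2-Q7, with few counts in WT, passed the low-count filter through their KI libraries. The members higher at an unadjusted p include H2-Q7 in CB and both genes in STR and PFC. Those with all KI libraries above include H2-Q7 in CB, both in STR and H2-Q4 alone in PFC. The part of these genes in the counts is therefore no support for a rise.

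**Figure D1:**
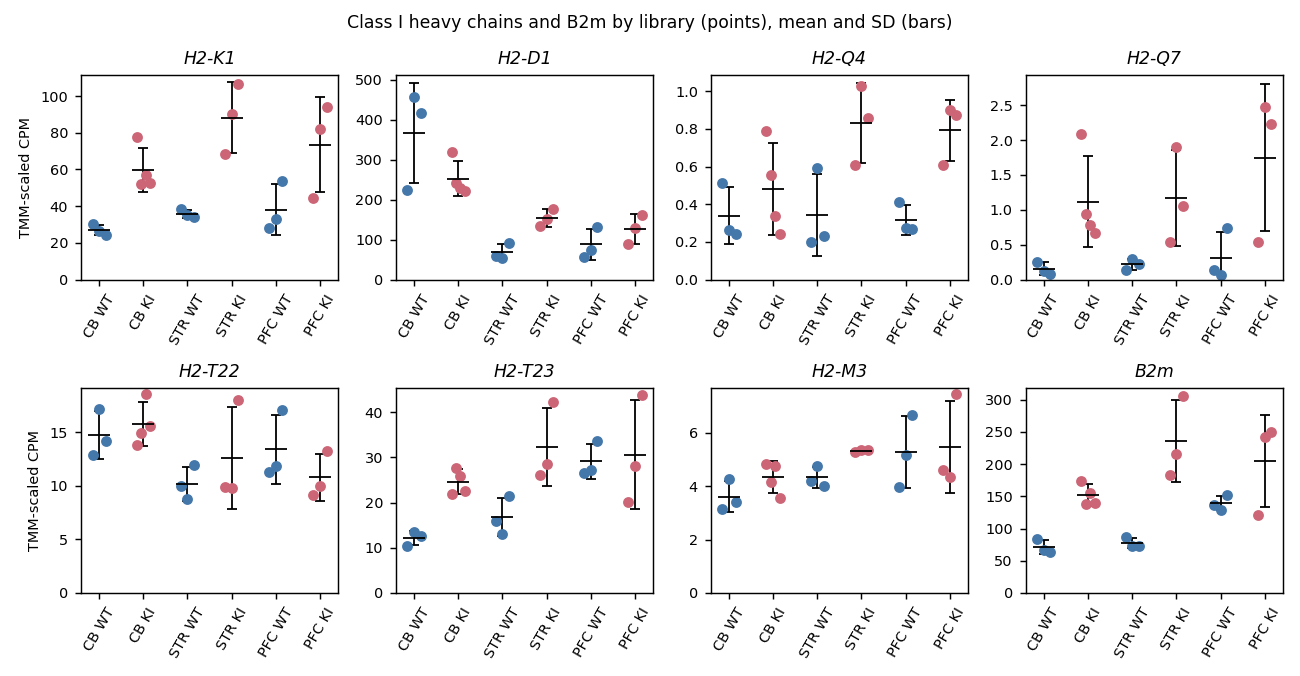
TMM-scaled CPM (vertical axes, linear, from 0) of the 8 genes in each library, by region and genotype; points are libraries (blue WT, red KI), and bars give the mean and the SD. The KI points of B2m and H2-K1 lie above all WT points in CB and STR, and those of H2-D1 do so in STR but not in CB.

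B2m had 174, 139, 155 and 140 CPM in the 4 CB KI libraries and 83.6, 66.8 and 63.0 in the CB WT libraries. In STR it had 184, 216 and 306 CPM in KI and 86.7, 73.4 and 73.7 in WT. In PFC it had 122, 242 and 250 CPM in KI and 137, 130 and 152 in WT. The KI and WT libraries were separate in CB and STR, whereas in PFC the lowest KI library lay below all 3 WT libraries and the other two lay above them. The log2 fold change of KI over WT was 1.09 ± 0.21 (SE) in CB (edgeR adjusted p = 0.0154), 1.59 ± 0.22 in STR (edgeR adjusted p = 0.00164) and 0.55 ± 0.22 in PFC (edgeR adjusted p = 0.754). The STR call held when any library was left out (highest edgeR adjusted p = 0.0208), and the CB call was lost without CB WT 2 (log2 fold change 1.05, edgeR adjusted p = 0.106) or CB WT 3 (1.02, edgeR adjusted p = 0.117).

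H2-K1 followed the same order of groups. It had 77.5, 52.3, 57.0 and 52.5 CPM in CB KI and 30.3, 26.6 and 24.5 in CB WT. In STR it had 68.2, 90.2 and 107 CPM in KI and 38.3, 35.5 and 34.1 in WT. In PFC it had 44.2, 82.2 and 93.8 CPM in KI and 27.9, 32.9 and 53.7 in WT, so that the groups overlapped there through 1 library on each side. The level rose 2.20-fold in CB (SE 0.25 on the log2 scale, edgeR adjusted p = 0.0390), and the log2 fold change was 1.29 ± 0.26 in STR (edgeR adjusted p = 0.0313) and 0.94 ± 0.26 in PFC (edgeR adjusted p = 0.464). Both calls lay near the threshold, and both were lost when the counts of the near-identical H2-K1 and H2-D1 were summed, most of them from H2-D1 (-0.33 in CB, edgeR adjusted p = 0.759, and 1.21 in STR, edgeR adjusted p = 0.0839). The H2-K1 call in CB was lost without CB KI 1 (adjusted p = 0.116), CB KI 2 (0.0537), CB KI 3 (0.0695), CB WT 1 (0.0765), CB WT 2 (0.174) or CB WT 3 (0.207), and, through the shared estimate of the spread, without PFC KI 2 (0.0507), STR KI 2 (0.0517), STR WT 1 (0.0557) or STR WT 2 (0.0570), all in edgeR. The call in STR was lost without STR KI 2 (adjusted p = 0.0598), STR KI 3 (0.189), STR WT 1 (0.0868), STR WT 2 (0.151) or STR WT 3 (0.104) in edgeR, while the log2 fold change stayed between 1.137 and 1.45.

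H2-D1, the other classical heavy chain, differed from H2-K1 in the cerebellum. It had 318, 242, 230 and 221 CPM in CB KI and 223, 456 and 417 in CB WT, and CB WT 1 lay at the level of the KI libraries while CB WT 2 and CB WT 3 lay above all of them. In STR it had 134, 152 and 177 CPM in KI and 60.3, 54.7 and 91.2 in WT, with no overlap. In PFC it had 89.3, 128 and 162 CPM in KI and 56.4, 75.3 and 133 in WT. The log2 fold change was -0.53 ± 0.28 in CB (edgeR adjusted p = 0.561), 1.17 ± 0.31 in STR (edgeR adjusted p = 0.144) and 0.52 ± 0.31 in PFC (edgeR adjusted p = 0.898), and none passed the test. Without CB WT 1 the CB value was -0.79 (edgeR adjusted p = 0.298), and without CB WT 2 it was -0.34 (edgeR adjusted p = 0.878). DESeq2 called the STR difference (1.17, DESeq2 adjusted p = 0.0110). Other class I genes also differed between CB WT 1 and the other CB WT libraries, such as H2-K2 at 4.88 CPM against 13.6 and 15.1. Whether the mice differed in their H2 alleles was not tested, and this limit holds for the CB values of H2-D1, for its ratio to B2m and for the sum of the heavy chains below.

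H2-T23 had 22.0, 27.8, 26.0 and 22.5 CPM in CB KI and 10.4, 13.4 and 12.7 in CB WT. In STR it had 26.2, 28.5 and 42.2 CPM in KI and 16.0, 13.1 and 21.5 in WT, and in PFC 20.1, 28.0 and 43.7 in KI and 26.6, 27.2 and 33.6 in WT. The groups did not overlap in CB and STR, and in PFC the KI libraries spanned the whole range of the WT libraries. The log2 fold change was 1.01 ± 0.24 in CB, just outside the threshold (edgeR adjusted p = 0.0561), 0.94 ± 0.25 in STR (edgeR adjusted p = 0.134) and 0.07 ± 0.24 in PFC (edgeR adjusted p = 0.999). The CB difference passed under DESeq2 (adjusted p = 0.00294), when CB was fitted alone in edgeR (0.00868) and with 4 single libraries of other regions left out in edgeR (PFC KI 1, 0.0251, PFC KI 3, 0.0195, STR KI 3, 0.0446, and STR WT 3, 0.0478). In PFC the value turned to -0.28 without PFC KI 3.

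The other non-classical heavy chains with moderate counts passed the test in no region. H2-T22, whose product is a ligand of some gamma-delta T cell receptors, ranged from 13.8 to 18.6 CPM in CB KI and from 12.9 to 17.2 in CB WT, from 9.82 to 18.0 in STR KI and from 8.77 to 11.9 in STR WT, and from 9.15 to 13.3 in PFC KI and from 11.3 to 17.1 in PFC WT. The groups overlapped in every region, and the log2 fold changes were 0.09 ± 0.22, 0.30 ± 0.24 and -0.32 ± 0.24 in CB, STR and PFC. The STR value was -0.05 without STR KI 3. H2-M3 had 5.27, 5.35 and 5.35 CPM in STR KI and 4.21, 4.76 and 4.02 in STR WT, a separation of the groups at a log2 fold change of 0.30 ± 0.23 (edgeR adjusted p = 0.818). It overlapped in CB (3.57 to 4.84 CPM in KI, 3.15 to 4.26 in WT, log2 fold change 0.27 ± 0.22) and in PFC (4.35 to 7.45 in KI, 3.97 to 6.67 in WT, 0.04 ± 0.23).

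H2-Q4 and H2-Q7, non-classical genes of the Q region of which H2-Q7 encodes a Qa-2 antigen, were near the limit of detection. Both passed the low-count filter through their KI libraries. H2-Q7 had 37, 17, 14 and 11 counts in the CB KI libraries and 4, 2 and 1 in the CB WT libraries. It had 8, 26 and 16 counts in STR KI and 2, 4 and 3 in STR WT, and 9, 33 and 23 counts in PFC KI and 2, 1 and 11 in PFC WT. KI counts exceeded WT counts in CB and STR without overlap, and 1 PFC WT library overlapped with KI. The log2 fold changes were 2.74 ± 0.80, 2.37 ± 0.80 and 2.41 ± 0.75 in CB, STR and PFC, and none passed the test (lowest edgeR adjusted p = 0.153, in CB). Without PFC WT 3 the PFC value was 3.97 (edgeR adjusted p = 0.201). With the counts of the related H2-Q genes summed, the values for the sum were 0.91, 1.68 and 1.67 (edgeR adjusted p = 0.390, 0.0823 and 0.266). H2-Q4 had 4 to 14 counts in CB KI and 3 to 8 in CB WT, 9 to 14 in STR KI and 3 to 8 in STR WT, and 9 to 12 in PFC KI and 4 to 6 in PFC WT. Its log2 fold changes were 0.48 ± 0.48, 1.27 ± 0.50 and 1.29 ± 0.51, with edgeR adjusted p values of 0.827, 0.465 and 0.753, and the STR value was 1.91 without STR WT 2.

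Reads of the heavy chains can be shared between related genes. Of the 50-base stretches of their M21 transcripts, 53.5% in H2-T22 (31.2% with H2-T10), 36.4% in H2-Q4, 26.5% in H2-Q7, 14.5% in H2-T23, 12.8% in H2-D1, 9.63% in H2-K1 and 0.576% in H2-M3 also occur in another gene, whereas B2m shares 0. The values of H2-T22, H2-Q4 and H2-Q7 are therefore uncertain in their assignment to a gene. The library kit named in the labels does not mark strand, so the reads of H2-Q4 and of the overlapping Gm11131 on the other strand cannot be told apart.

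**Figure D2:**
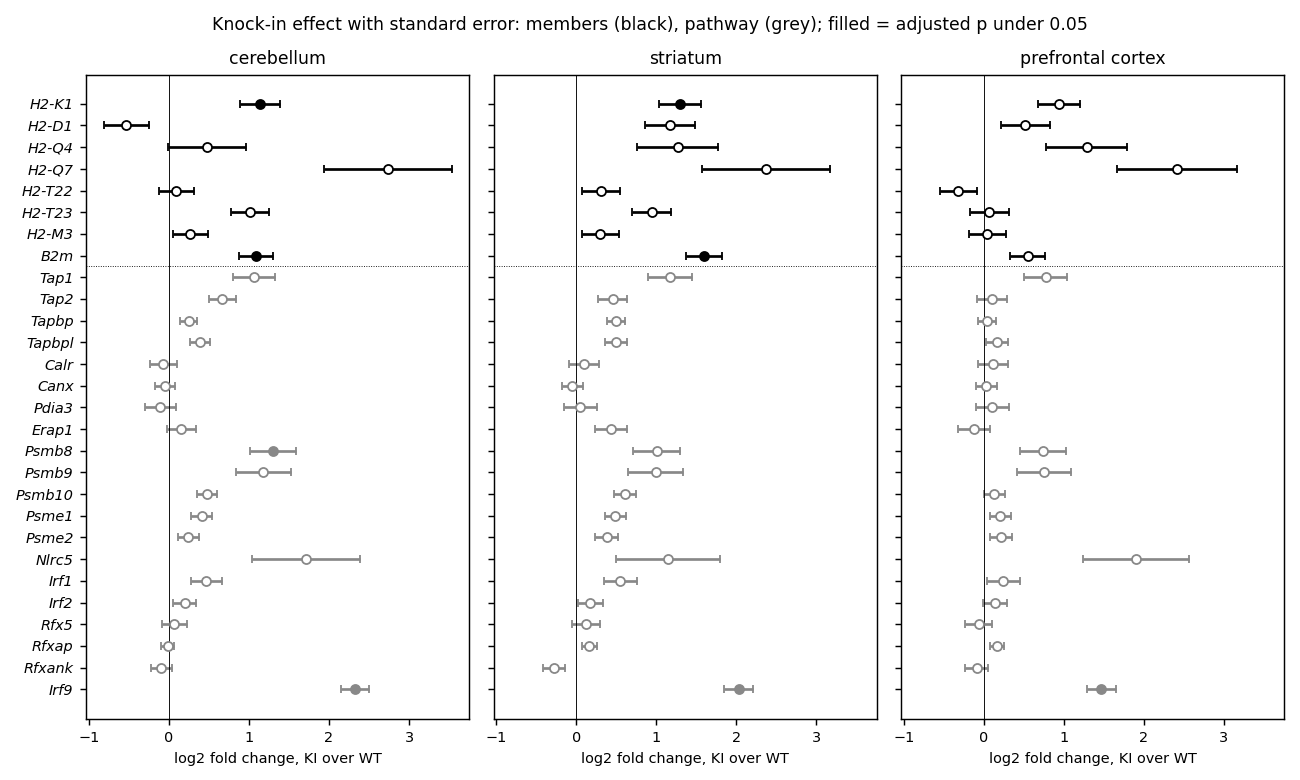
Log2 fold change of KI over WT (horizontal axes) with its standard error in each region for the 8 members (black) and the 20 genes of class I loading, processing and transcription (grey); filled points have an edgeR adjusted p under 0.05. B2m and H2-K1 are filled in CB and STR, Irf9 in all 3 regions, Psmb8 in CB, and H2-D1 is on the opposite side of 0 in CB.

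Whether the KI effect differed between regions was tested directly. None of the 24 differences (8 members in 3 pairs of regions) had an edgeR adjusted p under 0.05, and 5 had an unadjusted p under 0.05. All tested genes gave 2 calls for CB minus STR (0.0119%), 3 for CB minus PFC (0.0178%) and 0 for STR minus PFC. The H2-D1 effect was lower in CB than in STR by 1.70 ± 0.42 on the log2 scale (edgeR adjusted p = 0.285), and DESeq2 called that difference (-1.70, DESeq2 adjusted p = 0.0160). It was also lower in CB than in PFC, by 1.05 ± 0.42 (edgeR adjusted p = 0.701). The B2m effect was larger in STR than in PFC by 1.04 ± 0.31 (edgeR adjusted p = 0.975). The H2-T23 effect was larger in CB than in PFC by 0.95 ± 0.34 (edgeR adjusted p = 0.631) and larger in STR than in PFC by 0.87 ± 0.35 (edgeR adjusted p = 1.00).

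In WT mice the members differed in level between regions. Per kilobase of exon, B2m was at 82.7 ± 12.7 CPM (SD, n = 3) in CB, 90.6 ± 8.80 in STR and 162 ± 13.1 in PFC. The first pair did not differ beyond its spread (log2 difference -0.13 ± 0.22, edgeR adjusted p = 0.638), while CB was below PFC by 0.97 ± 0.22 (edgeR adjusted p = 0.00147) and STR below PFC by 0.84 ± 0.22 (edgeR adjusted p = 0.00823). H2-D1 was instead highest in CB, at 142 ± 48.4 CPM per kilobase in CB, 34.2 ± 15.4 in PFC and 26.7 ± 7.63 in STR. It was higher in CB than in STR by 2.41 ± 0.32 (edgeR adjusted p = 6.95e-06) and than in PFC by 2.05 ± 0.32 (edgeR adjusted p = 3.89e-05), with STR and PFC not separated (edgeR adjusted p = 0.427). H2-T23 was at 4.22 ± 0.545, 5.83 ± 1.48 and 10.1 ± 1.34 CPM per kilobase in CB, STR and PFC. Its PFC level exceeded that in CB by 1.26 ± 0.25 (edgeR adjusted p = 0.000480) and that in STR by 0.79 ± 0.25 (edgeR adjusted p = 0.0225), the latter lost without PFC WT 3 (adjusted p = 0.0792), STR WT 1 (0.0774) or STR WT 2 (0.117) in edgeR. The other 5 members passed the test in no pair of regions, but a pair of differences lay near the threshold. H2-T22, higher in CB than in STR by 0.53 (edgeR adjusted p = 0.0662), passed in edgeR with a replicate block across regions (0.54, adjusted p = 0.0176), a sex covariate (0.56, adjusted p = 0.0329), H2-T22 and H2-T10 summed (0.56, adjusted p = 0.0341) and without STR KI 3 (0.53, adjusted p = 0.0284). That block pairs same-numbered CB and STR libraries, but only 3 of 6 such pairs were of 1 inferred sex. Its value is therefore no support for the H2-T22 difference. H2-M3, lower in CB than in PFC by 0.55 (edgeR adjusted p = 0.0574), passed in edgeR with a sex covariate (adjusted p = 0.0369), with at least 10 counts in every library (0.0398) and without CB WT 2, PFC KI 3 or PFC WT 1 (lowest adjusted p = 0.0233, without PFC WT 1). Among all genes, 27.8%, 25.1% and 14% were higher and 28.7%, 26.9% and 16.4% lower in CB against STR, CB against PFC and STR against PFC. H2-K1 lay at 9.23 ± 0.993, 12.2 ± 0.728 and 13.0 ± 4.65 CPM per kilobase, H2-T22 and H2-M3 between 2.504 and 4.31 in the mean of each region, and H2-Q4 and H2-Q7 below 0.14. Among heavy chains, H2-D1 thus had the highest level per length in every group, and it made up 86.5% ± 4.64 (SD, n = 3) of the summed heavy chain level in CB WT, 72.5% ± 1.68 (n = 4) in CB KI and between 51.4% and 55.1% in the mean of the other 4 groups.

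B2m is on another chromosome than Tbp, so each heavy chain was also set against B2m in the same library, as log2 CPM of the heavy chain minus log2 CPM of B2m. In CB, the ratio of H2-K1 to B2m differed between genotypes by less than its spread, at -1.36 ± 0.13 (SD, n = 4) in KI and -1.38 ± 0.07 (n = 3) in WT (exact permutation test, two-sided, p = 0.914). H2-D1 was at 0.87, 0.80, 0.57 and 0.66 in CB KI and at 1.42, 2.77 and 2.72 in CB WT, lower in KI by a mean of 1.58 without overlap, and by 2.02 without CB WT 1. H2-T22 (-1.002), H2-M3 (-0.84) and H2-Q4 (-0.76) were also lower relative to B2m in all CB KI libraries, and H2-Q7 (0.93) higher. In STR, H2-K1 was lower relative to B2m by 0.29, H2-T23 by 0.63, H2-M3 by 1.27 and H2-T22 by 1.32, each without overlap, although H2-K1 itself was higher in KI. In PFC, H2-T22 (-0.78) and H2-T23 (-0.48) were lower and H2-Q4 (0.55) higher without overlap. With 4 against 3 libraries the exact permutation test cannot give a p below 0.0571, and with 3 against 3 none below 0.1, so no single ratio could pass 0.05. The lowest adjusted p over the 21 exact tests was 0.175. B2m itself was higher in KI in CB and STR, so the ratio of a gene whose level did not change falls there by construction. Of the 16840 other tested genes, 83.2% in CB and 91.4% in STR had a lower ratio to B2m in all KI than in all WT libraries, beside 4 of 7 heavy chains in each region. The lower ratios without overlap are therefore no result about the heavy chains in these regions. In PFC the share was 7.19% of all genes, beside 2 of 7 heavy chains. A higher ratio in all KI libraries was seen in 0.184% of all genes in CB, beside H2-Q7 alone of the 7 heavy chains, in 0.143% in STR, beside 0 of 7, and in 0.297% in PFC, beside H2-Q4 alone. H2-Q4 and H2-Q7 passed the low-count filter through their KI libraries, so their higher ratios are no support for a difference. Summed per kilobase, the 7 heavy chains were 2.04 ± 0.820 times the level of B2m in CB WT (1.097, 2.47 and 2.56) and 0.763 ± 0.0548 times in CB KI (0.702 to 0.817), 0.567 ± 0.126 in STR WT and 0.405 ± 0.0366 in STR KI, and 0.396 ± 0.113 in PFC WT and 0.397 ± 0.0563 in PFC KI.

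**Figure D3:**
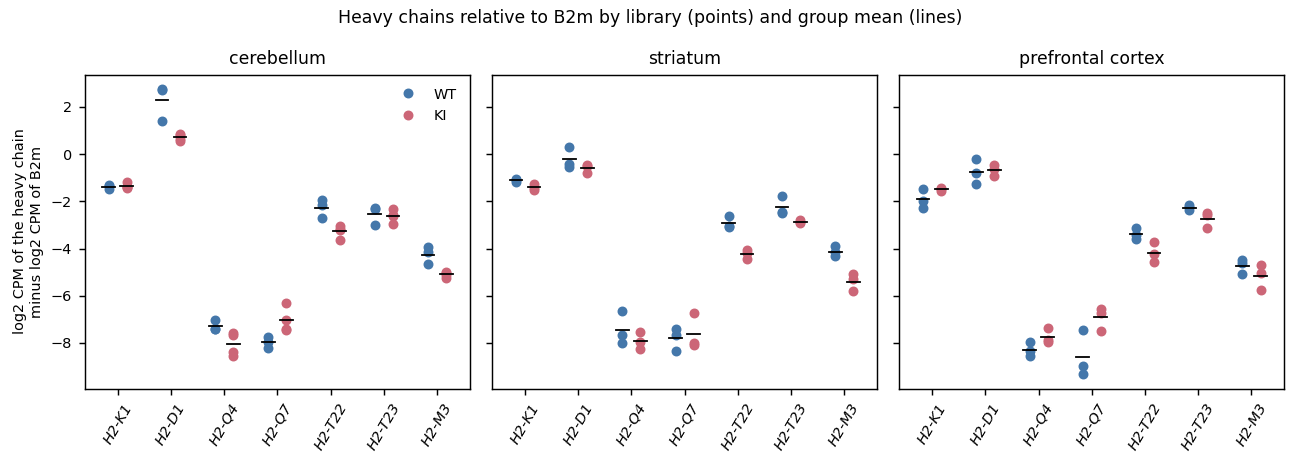
Log2 CPM of each heavy chain minus log2 CPM of B2m (vertical axis) in each library (points, blue WT and red KI) with the group mean (line), by region. The H2-K1 points of both genotypes overlap in CB, and H2-D1 is lower in all 4 CB KI libraries, between 0.57 and 0.87, than in the CB WT libraries, between 1.42 and 2.77.

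Genes around the heavy chains on chromosome 17 were examined as a comparison. Of 103 tested genes that lie between H2-K1 and H2-M3 and are no class I genes, 2 were called higher and 0 lower in CB (edgeR). In STR and PFC 0 were called. Of all tested genes, 0.517%, 0.392% and 0.0891% were called higher in CB, STR and PFC. At an unadjusted p under 0.05, 8, 7 and 5 were higher, beside 4.86%, 3.37% and 2.53% of all genes. Lower were 7, 7 and 3, beside 5.26%, 4.76% and 3.4%. All KI libraries lay above all WT libraries for 10.7%, 10.7% and 3.88% of the 103, beside 5.82%, 5.65% and 4.38% of all genes. Of the 92 in no list used here, 7.61%, 7.61% and 3.26% did so. The median log2 fold changes of the 103 genes were -0.05, 0.01 and 0.04 in CB, STR and PFC, beside 0.01, -0.01 and 0.00 for all tested genes and 0.48, 1.17 and 0.52 for the 7 heavy chains. The CB median of the heavy chains is the value of H2-Q4, which passed the low-count filter through its KI libraries. In STR and PFC the median is the value of H2-D1, and H2-Q4 and H2-Q7, which passed the filter in that way, lie above it. In PFC the other heavy chains were at 0.94 (H2-K1), 0.07 (H2-T23), 0.04 (H2-M3) and -0.32 (H2-T22). The medians are therefore no support for a difference from the neighbours. The 2 called genes were Aif1, which encodes the microglial protein IBA1 (1.33 ± 0.23, edgeR adjusted p = 0.00673), and Psmb8, which encodes an immunoproteasome subunit (1.30 ± 0.29, edgeR adjusted p = 0.0395). Of 299 tested genes between Tbp and H2-K1, Gng13 (-1.098), Grm4 (-0.74) and Adamts10 (-1.04) were called lower in CB, beside 0.315% of all genes. Zfp760 (0.90) was called higher in STR, beside 0.392%. At an unadjusted p under 0.05, 29, 19 and 13 of the 299 were lower in CB, STR and PFC, beside 5.26%, 4.76% and 3.4% of all genes. Higher were 9, 7 and 9 of the 299, beside 4.86%, 3.37% and 2.53%. Among 7 other tested class I genes of chromosome 17, 0 were called in any region in edgeR, and 1, 3 and 1 of them had an unadjusted p under 0.05 in CB, STR and PFC, all higher in KI. Their medians were 0.50, 1.48 and 0.21.

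**Figure D4:**
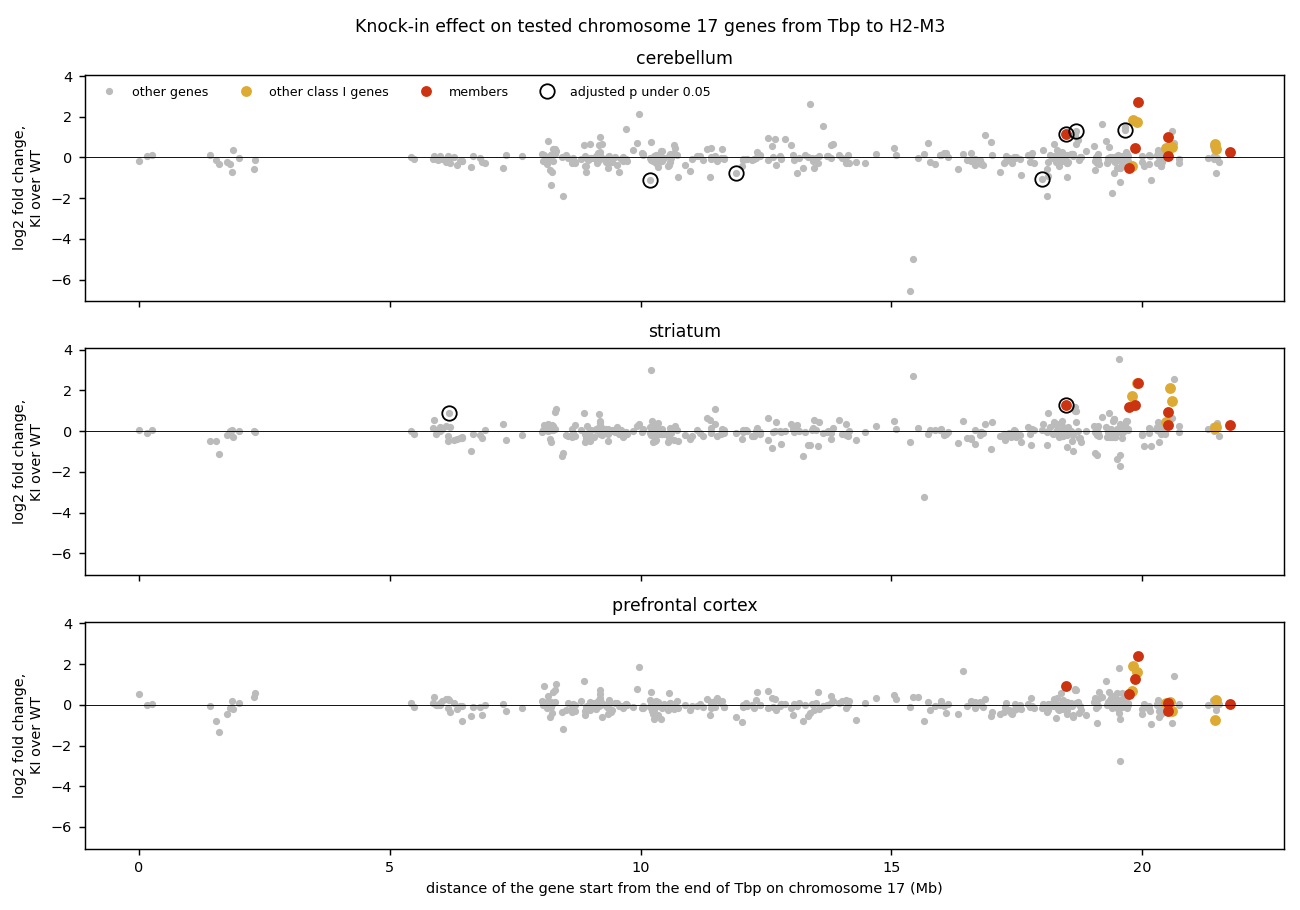
Log2 fold change of KI over WT (vertical axes) of tested chromosome 17 genes against the distance of the gene start from the end of Tbp (Mb, horizontal axis), in the 3 regions; red points are the heavy chains, yellow points other class I genes and grey points other genes, and rings mark an edgeR adjusted p under 0.05. In STR all 7 heavy chains lie above 0 among neighbours spread around 0, and H2-K1 at 18.5 Mb is the ringed one. H2-Q4 and H2-Q7 among them passed the low-count filter through their KI libraries.

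The genes that load, supply and transcribe class I were taken as a list of 20, all tested. The list was chosen with earlier results of these data known, so its counts are no independent support. In CB, 2 were called higher and 0 lower (0.517% and 0.315% of all tested genes), with a median log2 fold change of 0.32. In STR, 1 was higher and 0 lower (median 0.47), beside 0.392% and 0.19% of all tested genes. In PFC 1 was higher and 0 lower (median 0.15), beside 0.0891% and 0.0178%. Irf9, which encodes a subunit of the transcription complex of type I interferon signalling, had the largest log2 fold change of the list in each region but PFC, where Nlrc5 was larger without passing the test. It rose by 2.33 ± 0.18 in CB (edgeR adjusted p = 4.45e-06), 2.03 ± 0.18 in STR (1.61e-05) and 1.47 ± 0.18 in PFC (0.00305). With PFC fitted alone 0 genes were called higher, so the PFC call of Irf9 ended. Nlrc5, the class I coactivator, had at most 2.32 CPM in any library, with log2 fold changes of 1.71 ± 0.67, 1.144 ± 0.65 and 1.90 ± 0.67 and edgeR adjusted p values of 0.369, 0.706 and 0.637. The count called higher in CB fell to 1 without CB KI 1, 2 or 3, CB WT 1, 2 or 3, PFC KI 2, STR KI 3, STR WT 1 or STR WT 2, and that in STR rose to 2 without PFC KI 2 or 3, PFC WT 3, STR KI 2 or STR WT 3.

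Of the 8 peptide loading genes, 0 were called in edgeR, with 4, 5 and 1 higher and 0 lower at an unadjusted p under 0.05 in CB, STR and PFC, and DESeq2 called 2 in CB and 2 in STR. At an unadjusted p under 0.05 in edgeR, 4.86%, 3.37% and 2.53% of all tested genes were higher. The lower shares were 5.26%, 4.76% and 3.4%. DESeq2 called 175 of all tested genes higher in CB and 112 in STR. Tap1, which encodes a subunit of the peptide transporter, had 5.26 to 7.37 CPM in CB KI and 2.49 to 4.12 in CB WT, 6.60 to 9.58 in STR KI and 2.47 to 4.54 in STR WT, and 5.84 to 8.06 in PFC KI and 3.05 to 5.66 in PFC WT. Its groups did not overlap in any region, at log2 fold changes of 1.06 ± 0.26, 1.17 ± 0.27 and 0.77 ± 0.27 (edgeR adjusted p = 0.0693, 0.0632 and 0.637). Calr and Canx, general chaperones of the endoplasmic reticulum, had log2 fold changes between -0.07 and 0.11. Of the 5 immunoproteasome and activator genes, Psmb8 was called in CB, where 4 had an unadjusted p under 0.05, and 0 were called in STR and PFC in edgeR, where 5 and 2 had one. Psmb8 had 4.05 to 5.76 CPM in CB KI and 1.70 to 2.12 in CB WT.

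The partners of B2m outside the H2 complex (Cd1d1, Mr1, Fcgrt and Hfe) gave 0 calls in edgeR and 0 unadjusted p values under 0.05 in any region. Of 7 tested class II genes of the H2 complex, 0 were called in any region in edgeR and 1 had an unadjusted p under 0.05, H2-DMa in STR (-0.47 ± 0.22, edgeR adjusted p = 0.597). Class II medians were 0.05, -0.36 and -0.25 in CB, STR and PFC. Receptors for class I were at the limit of detection. Only Pirb of 6 receptor genes in the table passed the low-count filter, at 0.168 to 1.54 CPM, and Cd8a did not exceed 0.131 CPM in any library.

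Markers of other cells moved with the members in some regions and not in others. In CB, 9 of 12 microglia markers were called higher in KI, beside 0.517% of all tested genes, including C1qa (1.28 ± 0.14) and Cd68 (1.17 ± 0.15). Their summed level in CB was 256 to 345 CPM in KI and 167 to 175 in WT. P2ry12 (0.22 ± 0.10, edgeR adjusted p = 0.493) was among the 3 that were not called. In STR, 0 of the 12 were called and the sums were 806 to 909 CPM in KI and 794 to 900 in WT. In PFC, 0 were called and the sums were 646 to 769 CPM in KI and 720 to 776 in WT. B2m and H2-K1 were called higher in CB and in STR, and the part of microglia in their values was not tested in any region. Blood markers summed to 220 to 537 CPM in STR KI and 178 to 227 in STR WT, with 0 of 5 called, and their part in the STR values was not tested. They overlapped in CB (160 to 352 in KI, 117 to 451 in WT) and were lower in PFC KI (236 to 262) than in PFC WT (275 to 317). Endothelial sums were 279 to 315 CPM in CB KI and 276 to 287 in CB WT, 321 to 373 in STR KI and 322 to 418 in STR WT, and 340 to 391 in PFC KI and 325 to 383 in PFC WT. Of 7 T and B cell markers, Cd4 alone was tested, at 77.1 to 153 CPM in STR and at most 14.0 elsewhere. The other 6 were at or near 0, with Cd3e at most 0.418 CPM and Cd79a at most 0.861 CPM in any library.

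The genes whose levels varied most like those of B2m over the 19 libraries, after the mean of each region had been removed, were H2-K1 (Pearson r = 0.942), Trim30a (0.937), Irgm1 (0.932), Ifit1 (0.932) and Ifitm3 (0.927). These libraries include the KI and WT groups, so the values describe a shared difference between genotypes as well as variation within them. The closest to H2-K1 were H2-Q7 (0.945), B2m (0.942), Gm43302 (0.938), Trim30a (0.937) and Oasl2 (0.934). H2-Q7 passed the low-count filter through its KI libraries, so its place is no support for a shared pattern. Trim30a, Irgm1, Ifit1, Ifitm3 and Oasl2 are known interferon-stimulated genes. Ifit1 was called higher in CB (3.17 ± 0.38, edgeR adjusted p = 0.000257) and STR (3.598 ± 0.40, edgeR adjusted p = 0.000198), and was at 1.73 ± 0.37 in PFC (edgeR adjusted p = 0.123). Of these genes only Oasl2 was called in all 3 regions, and in PFC at 2.32 ± 0.31 (edgeR adjusted p = 0.00305), a call that also ended with PFC fitted alone. H2-D1 stood apart from this group, with r = 0.46 to B2m and 0.529 to H2-K1. Its closest genes were H2-K2 (0.835), Rn7sk (0.818), Ackr3 (0.799), Tead4 (0.798) and Slc20a1 (0.763), none of which was called in a KI comparison. H2-K2 lies in the same complex as H2-D1.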

How the data were processed

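RNA libraries were made with the SMART-Seq v4 and Nextera XT kits, per the labels. The authors deposited raw counts of reads per Ensembl gene, and a normalized signal table in which the deposited values are the same counts divided by 1 size factor per library. The submitters' processing notes name bcl2fastq 2.17.1.14, STAR 2.5.2b, HTSeq, DESeq2 1.10.1 and GRCm38.p3, and the study's methods also name Cufflinks and Cuffdiff. Use of strand in counting is not given in the sources used here.

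Raw counts went into edgeR 4.0.16 (R 4.3.3), with filterByExpr on region and genotype, TMM, and 1 quasi-likelihood fit over all 19 libraries (13 residual degrees of freedom, common biological coefficient of variation 0.191). Benjamini-Hochberg adjustment covered 16841 genes, with a threshold of 0.05, and ± after a fold change is its standard error. Log2 CPM used a prior count of 2. Ratios to B2m were compared by exact two-sided permutation tests (scipy 1.17.1). DESeq2 1.42.0 was an alternative. For the sex covariate, sex was inferred from the counts of Xist and of Y-linked genes. STR KI and PFC KI each held 1 female and 2 male libraries, and STR WT and PFC WT each 2 female and 1 male. CB KI held 2 female and 2 male libraries, and CB WT 2 female and 1 male. Sex and genotype were thus partly confounded. Scripts were tested on simulated counts. The members and gene lists were chosen with earlier results of these data known. Named genes were the members, list genes past the threshold with up to 3 others per list, called genes between Tbp and H2-M3, the 5 genes most correlated with each of B2m, H2-K1 and H2-D1, and up to 3 markers per list. One gene of the lists is not reported here. Of 41128 identifiers, 40254 had an M21 name.

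Same-numbered STR and PFC libraries of 1 genotype deviated together from their group means (r from 0.233 to 0.368 in all 6 pairs), while those of CB did not deviate with them (-0.104 to 0.163).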

Additional observations from a re-analysis of the deposited data

Results flagged for a closer look

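One value stood apart from its group, out of 15 groups of 4 libraries examined (the 8 members' CPM and the 7 ratios to B2m in CB KI), of which chance sets apart about 1 in 20. The log2 ratio of H2-K1 to B2m was -1.17 in CB KI 1, against -1.40, -1.44 and -1.41 in the other CB KI libraries. The same library had the highest CPM of H2-K1 in its group (77.5) and of B2m (174).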

How the results depend on the processing

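Of 182 alternative values of the members' KI effects under other settings, 172 kept direction and side of the threshold, 8 came to pass it, 1 fell short and 1 turned. With DESeq2 the members called higher rose from 2 to 4 in STR, and the pathway genes called higher from 2 to 5 in CB and from 1 to 5 in STR. All genes called higher rose from 87 to 175 in CB, from 66 to 112 in STR and from 15 to 33 in PFC with DESeq2, and those called lower from 53 to 161, from 32 to 102 and from 3 to 19. Pathway genes called higher in STR were 3 with at least 10 counts in every library and 3 with a sex covariate. With each region fitted alone, the pathway genes called in PFC fell from 1 to 0, all genes called higher fell from 66 to 31 in STR and from 15 to 0 in PFC, and all genes called lower went from 53 to 88 in CB, from 32 to 15 in STR and from 3 to 0 in PFC. A fit with related class I genes summed (H2-K1 with H2-D1, the H2-Q genes, H2-T22 with H2-T10) left 1 member called in CB and 1 in STR, and put the pair of H2-K1 and H2-D1 at -0.33 in CB because H2-D1 has most of its counts. Members called higher ranged from 0 to 3 in CB and from 1 to 2 in STR, and pathway genes from 1 to 2 in CB and in STR, with single libraries left out.

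Replicate numbers did not pair KI with WT libraries (correlations of deviations from -0.245 to 0.172). The replicate block within regions took the pathway genes called in STR from 1 to 2 and let H2-T23 pass in CB (1.05, adjusted p = 0.0135) and in STR (0.94, adjusted p = 0.0304) in edgeR, with 42 genes called higher in STR and 8 in PFC, and it changed no other call of a member's KI effect. It can give no difference between WT regions. The block by mouse, with STR and PFC alone (added after seeing the data), changed no call of a member (STR minus PFC 1.09 for B2m and 0.93 for H2-T23, both with an edgeR adjusted p of 0.943). H2-T23 in CB also passed with no low-count filter (edgeR adjusted p = 0.0302) and with a sex covariate (0.0297).

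Some values turned sign. With summed genes each value is that of the sum, of H2-K1 with H2-D1 for H2-K1, and of the H2-Q genes for H2-Q4 and H2-Q7. There, CB minus STR was -0.77 for H2-Q7, CB minus PFC was -0.99 for H2-K1 and -0.76 for H2-Q7, and STR minus PFC was 0.0092 for H2-Q4 and H2-Q7. In WT mice, CB against STR was 1.91 for the sum of H2-K1 and H2-D1, beside -0.41 for H2-K1 alone and 2.41 for H2-D1 alone. CB against PFC was 1.64 for that sum, beside -0.49 for H2-K1 alone and 2.05 for H2-D1 alone. For the sum of the H2-Q genes, CB against STR was 0.58 and CB against PFC 0.54 (H2-Q7 turned), and STR against PFC -0.0462 (H2-Q4 turned). With a replicate block, the H2-M3 difference of CB minus STR was 0.0532 across and 0.0520 within regions, and the H2-Q4 difference of STR minus PFC 0.0229 by mouse, 0.0492 within regions, and 0.0191 with the sex covariate. H2-Q4 in WT CB against STR was -0.0021 with DESeq2 and -0.0025 with its size factors. A difference of medians gave -0.0494 for H2-K1 over B2m in CB and -0.35 for H2-Q7 over B2m in STR. The cause of these turns was not tested beyond the sums.

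With single libraries left out, effects that turned ranged from -0.0515 to 0.45 (H2-T22, STR), -0.28 to 0.30 (H2-T23, PFC) and -0.23 to 0.25 (H2-M3, PFC). Differences of CB minus STR ranged from -0.31 to 0.0054 (H2-K1), -0.11 to 0.91 (H2-Q7), -0.35 to 0.15 (H2-T22), -0.14 to 0.32 (H2-T23) and -0.12 to 0.11 (H2-M3), those of CB minus PFC from -0.13 to 0.42 (H2-K1) and -1.23 to 0.86 (H2-Q7), and those of STR minus PFC from -0.29 to 0.63 (H2-Q4) and -1.60 to 0.42 (H2-Q7). WT differences ranged from -0.42 to 0.64 (H2-Q4, CB against STR), -0.32 to 0.34 (H2-Q4) and -1.48 to 0.61 (H2-Q7) for CB against PFC, and from -0.27 to 0.24 (H2-K1), -0.60 to 0.0616 (H2-D1), -0.53 to 0.39 (H2-Q4) and -0.98 to 1.04 (H2-Q7) for STR against PFC. Ratios to B2m ranged from -0.0369 to 0.0549 (H2-K1, CB), -0.32 to 0.0276 (H2-T23, CB), -0.24 to 0.44 (H2-Q7, STR) and -0.18 to 0.37 (H2-D1, PFC).

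Of all tested chromosome 17 genes, in place of those between H2-K1 and H2-M3, 0.377% against 1.94% were called higher in CB, 0.252% against 0 in STR and 0.126% against 0 in PFC, and 0.629% against 0 in CB and 0.377% against 0 in STR were called lower. Spearman's rho kept 1 of the 5 genes most like B2m, 3 of those most like H2-K1 and 2 of those most like H2-D1. H2-Q4 and H2-Q7 had at most 37 counts in a library, and their large standard errors limit what could be called.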

Other observations

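The 3 CB WT libraries differed among themselves in several class I genes of chromosome 17 that are not among the 8 genes described above, and these genes were named after their values were seen. H2-Bl had 28.3 CPM in CB WT 1 and 3.21 and 3.07 in CB WT 2 and 3, while the 4 CB KI libraries had 33.7, 21.8, 6.55 and 6.95. H2-Q2 had 21 counts in CB WT 1 and 0 and 1 in CB WT 2 and 3, with 41, 32, 22 and 31 counts in CB KI (a count of 0 allows up to 3 counts). H2-T24 ran the other way, with 3.53 CPM in CB WT 1 and 8.52 and 8.49 in CB WT 2 and 3, beside 8.07 to 10.8 in CB KI. H2-K2 had 4.88 CPM in CB WT 1 and 13.6 and 15.1 in CB WT 2 and 3, beside 4.48 to 6.36 in CB KI, the same order as H2-D1. In STR and PFC, H2-K2 stayed between 0.548 and 2.56 CPM and H2-Bl between 0.386 and 5.54. B2m and H2-K1 did not follow this split, at 83.6 and 30.3 CPM in CB WT 1 and 63.0 to 66.8 and 24.5 to 26.6 in the other two. The labels give the same background for every mouse, and whether the mice carried the same H2 alleles was not tested.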
